A study of Mus musculus with 6 samples.

Results

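A group of 10 genes that are active as red cell precursors mature was examined in sorted bone marrow erythroblasts: the ubiquitin-conjugating enzymes Ube2o, Ube2h and Ube2l6, the ubiquitin ligase genes Trim58, Trim10, Rnf10 and Fbxo7, and the nuclear genes Xpo7, Mxi1 and Hemgn. Every probe set whose platform annotation names a single gene equal to one of these symbols was taken, which gave 22 probe sets for 9 genes, out of 45037 probe sets tested and 18193 genes named. No probe set was matched to Trim58, so it has no value here. The samples were 3 mice labelled wild type (WT; titles numbered 497, 504 and 550) and 3 labelled miR-144/451 knockout (KO; 493, 548 and 551), with 1 Affymetrix Mouse Genome 430 2.0 array each. Cells carrying both Ter119, an erythroid surface antigen, and CD71, the transferrin receptor, and of large size by forward scatter were sorted from freshly isolated marrow. Strain, age, sex and the extent of the deletion are not given in the sources used here. Mice were not pooled as far as the titles show, and p-values measure only the spread between these arrays.

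The last divisions of an erythroblast are followed by chromatin condensation, extrusion of the nucleus and removal of organelles and of proteins that a red cell does not keep. Ubiquitin is attached to proteins by a relay in which an activating enzyme (E1) loads a conjugating enzyme (E2), and a ligase (E3) selects the protein to be marked, often for the proteasome. Several E2 and E3 genes are strongly induced in late erythroblasts, and mouse mutants of some of them, such as Ube2o, have abnormal red cells. The deleted locus encodes microRNAs that accumulate over the same stages, and the comparison asks how transcripts differ without them.

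The mature microRNAs of the locus are shown because the KO label names this locus as the one knocked out. Capitals mark the seed, bases 2 to 8, which pairs with target messages. They come from RefSeq on build GRCm38.p6, plus strand, at chr11:78073010-78073032 for miR-144-5p, chr11:78073047-78073066 for miR-144-3p and chr11:78073186-78073207 for miR-451a.
mmu-miR-144-5p: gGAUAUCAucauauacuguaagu
mmu-miR-144-3p: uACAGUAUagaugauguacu
mmu-miR-451a: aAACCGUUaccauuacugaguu
The seeds differ from each other, so a message pairing with one need not pair with another. The microRNAs themselves were not analysed here, and the genotypes rest on the labels.

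Promoters of the members were searched for the letters AGATAA, which the erythroid factor GATA1 can bind, on both strands, over the 250 bases before and 50 after each start in RefSeq (GRCm38.p6). Such a window was found for 8 of the 10 genes, 12 windows in all; Ube2o and Xpo7 were not matched. The letters occurred in 3 of the 12 windows, those of Trim10, Hemgn and 1 of the starts of Ube2h, and in 11.2% of all 32851 windows. The 30 bases around each match are shown with the motif or its reverse complement in capitals, since these are the members whose start regions hold it.
Trim10 (chr17:36869399-36869428, plus strand): agctcaagagccTTATCTgagtccccacac
Hemgn (chr4:46404138-46404167, minus strand): tgtggtctaaccAGATAAaacttttaggcg
Ube2h (chr6:30243990-30244019, minus strand): gctgtagttaaaAGATAAagccgtaaacat
Counted from the start on which RefSeq's window was built, which need not be the outermost start of the gene, the match lies 163 bases before it in Trim10, 204 before it in Ube2h and 28 after it in Hemgn. The Ube2h gene spans chr6:30211289-30304539, so its match lies inside the gene, at an internal start. A match describes the letters and was not tested as a binding site.

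On the arrays the erythroid markers Klf1, Gata1, Slc4a1, Alas2, Epor and Tfrc lay above each array's 25th percentile of intensity. That level is a low bar, passed on every array by 30778 of the 45037 probe sets tested. Markers of other blood cells were above it too: all measured markers of neutrophils (8), macrophages (8), B cells (6), T and NK cells (5), megakaryocytes (6) and of eosinophils, basophils and mast cells (6) passed that level on at least 1 array. Their summed linear intensities were lower in KO without overlap for neutrophils (47292 to 51510 in WT, 41254 to 45831 in KO), macrophages (8943 to 10522 and 7282 to 8241), B cells (3876 to 6643 and 2559 to 3565), T and NK cells (1180 to 1597 and 595 to 954) and eosinophils, basophils and mast cells (3447 to 5937 and 2480 to 2815). Megakaryocyte sums (6028 to 6364 and 5784 to 6941) and erythroid sums (37344 to 39500 and 36011 to 37439) overlapped. Single markers were each read by their brightest probe set, and their levels differed widely. Over all arrays the neutrophil marker S100a9 read 13.36 to 13.45 and the erythroid marker Slc4a1 13.00 to 13.12. The NK marker Ncr1 read 4.64 to 4.82, under the array medians of 5.62 to 5.78. All KO arrays lay below all WT arrays for 4 of 8 neutrophil, 3 of 8 macrophage and 2 of 6 B cell markers. This held for 3 of 6 erythroid, 0 of 6 megakaryocyte and 3 of 6 eosinophil, basophil and mast cell markers. The share over all genes was 16.2%. Of the 5 T and NK markers only Nkg7 separated (9.88 to 10.18 in WT, 8.36 to 9.49 in KO), and Ncr1 was at 0.07. The 3' minus 5' signal of actin, a measure of RNA integrity and labelling, ran from 1.65 to 1.67 over WT arrays and from 1.82 to 1.86 over KO arrays; for Gapdh it ran from 1.03 to 1.09 and from 1.0 to 1.05. The part of these in the results below was not tested. In bulk RNA, fewer cells of a type and less RNA per cell cannot be told apart.

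Late ubiquitin and remodelling genes lay mostly a little lower in KO. Of the 22 probe sets 21 were below 0 on the log2 scale (KO minus WT), against 56.4% of all probe sets, with a median of -0.32 against -0.04 for all. Xpo7, a nuclear exportin, had the widest differences (-1.23 to -0.18 over its 8 probe sets) and Ube2l6, the E2 for the ubiquitin-like protein ISG15, was at -0.69. The largest opposite value was a difference of 0.08 for 1 probe set of Ube2h. Centring each array on its own median moved the median of all probe sets by 0.11, to 0.07; the member median was then -0.21 and 18 of 22 were below 0. With each gene read by its brightest probe set alone, 8 of the 9 genes were below 0 and the median was -0.18.

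None of the 22 passed limma's test at an adjusted p under 0.05 (Benjamini-Hochberg over all probe sets). That threshold was passed by 0.355% of all probe sets, 77 lower and 83 higher, a split that became 77 and 157 after a further quantile normalization and 91 and 320 with arrays centred. At an unadjusted p under 0.05, 10 member probe sets were lower and 0 higher, against 12.2% and 7.61% of all probe sets. Of these 10, Xpo7 gave 6, Rnf10 2, Ube2l6 1 and Trim10 1. The count was 5 without WT 550, 6 without KO 548 and 6 with arrays centred. All KO arrays lay below all WT arrays in 12 probe sets of 5 genes, 7 of them from Xpo7. This separation was seen in 15.3% of all probe sets and in 19.3% of those above the median mean intensity. By the brightest probe set of each gene, 5 of the 9 genes separated, against 16.2% of all genes. Without Xpo7, 5 of 14 probe sets separated and the median was -0.19. With an intensity trend and a robust prior, limma called 8 member probe sets lower and 0 higher, where it called 1.83% of all probe sets lower and 1.71% higher. These were 6 probe sets of Xpo7 and those of Ube2l6 and Trim10. An ordinary equal-variance test called 0, with 9 at an unadjusted p under 0.05.

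**Figure D1:**
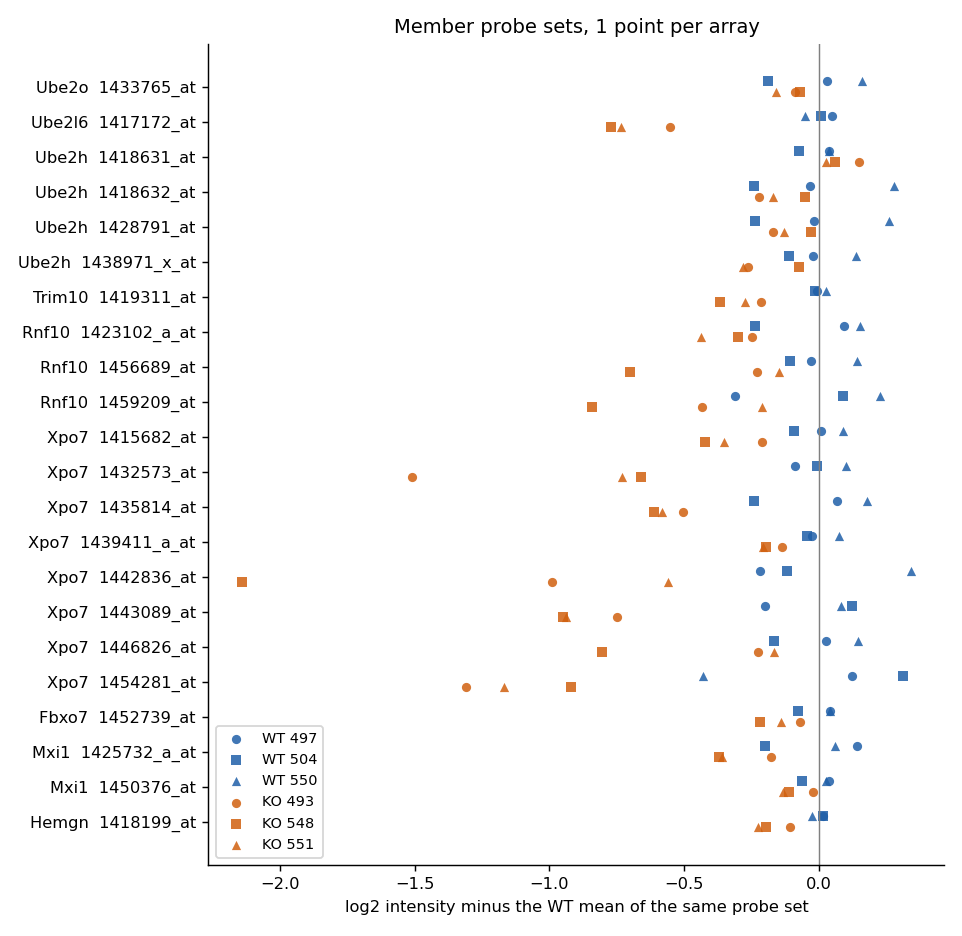
Log2 intensity of each member probe set on each array, minus the WT mean of that probe set (x axis); 1 point per array, WT in blue and KO in orange, marker shapes by title number. The KO points of Ube2l6, Trim10, Hemgn, 2 of the 3 Rnf10 and 7 of the 8 Xpo7 probe sets lie left of all WT points, while those of Ube2o and of 2 of the 4 Ube2h probe sets lie within the WT range.

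Among the conjugating enzymes, Ube2l6 was the lowest in KO, and the other member E2 genes, Ube2o and Ube2h, overlapped between genotypes. Ube2l6 encodes UBCH8, which transfers ISG15 and can also transfer ubiquitin. Its log2 intensity was 10.40 (WT 497), 10.36 (WT 504) and 10.30 (WT 550), against 9.80 (KO 493), 9.58 (KO 548) and 9.62 (KO 551); values below follow this order of arrays. The highest KO array was thus 0.50 below the lowest WT array, a wider gap than the range within either genotype. The difference was -0.69 ± 0.11 (SE, n = 3 per group; 95% interval -0.94 to -0.43), a KO level 0.621 of the WT level, with an adjusted p of 0.0625 by limma. The adjusted p was 0.00649 with the intensity trend and 0.0239 when probe sets under the median mean intensity were left out (a fit that called 4.51% of its 22522 probe sets, 1.93% lower), and 0.122 to 0.182 when 1 array was left out. Over those 6 reduced fits the difference stayed between -0.75 and -0.64.

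Ube2o encodes a large enzyme that acts as both E2 and E3 and clears ribosomal proteins from reticulocytes. It read 11.53, 11.31 and 11.66 in the WT mice, against 11.41, 11.43 and 11.34 in KO, with all KO values inside the WT range. Its difference of -0.11 ± 0.12 (95% interval -0.40 to 0.18; limma adjusted p = 0.669) turned to 0.0033 with arrays centred. The gene lies on chromosome 11, as the deleted locus does, with 620 measured genes between them.

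Ube2h encodes the E2 that works with the CTLH ligase complex, whose subunit MAEA is needed in erythroblast maturation. Its brightest probe set (1418631_at) read 12.07, 11.96 and 12.07 (WT) against 12.18, 12.09 and 12.06 (KO), a difference of 0.08 ± 0.10 (95% interval -0.16 to 0.31). The other 3 probe sets were at -0.21 to -0.11, and none of the 4 separated the genotypes. For 1438971_x_at, whose suffix marks probes that can match other transcripts, the log2 ratio to the brightest probe set was -1.92 to -1.64 in KO and -1.57 to -1.41 in WT. This gap of -0.28 had an exact two-sided permutation p of 0.1, the smallest that 3 arrays against 3 can give. In 1428791_at the WT arrays alone spanned 10.28 to 10.78, around KO values of 10.35, 10.49 and 10.39.

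**Figure D2:**
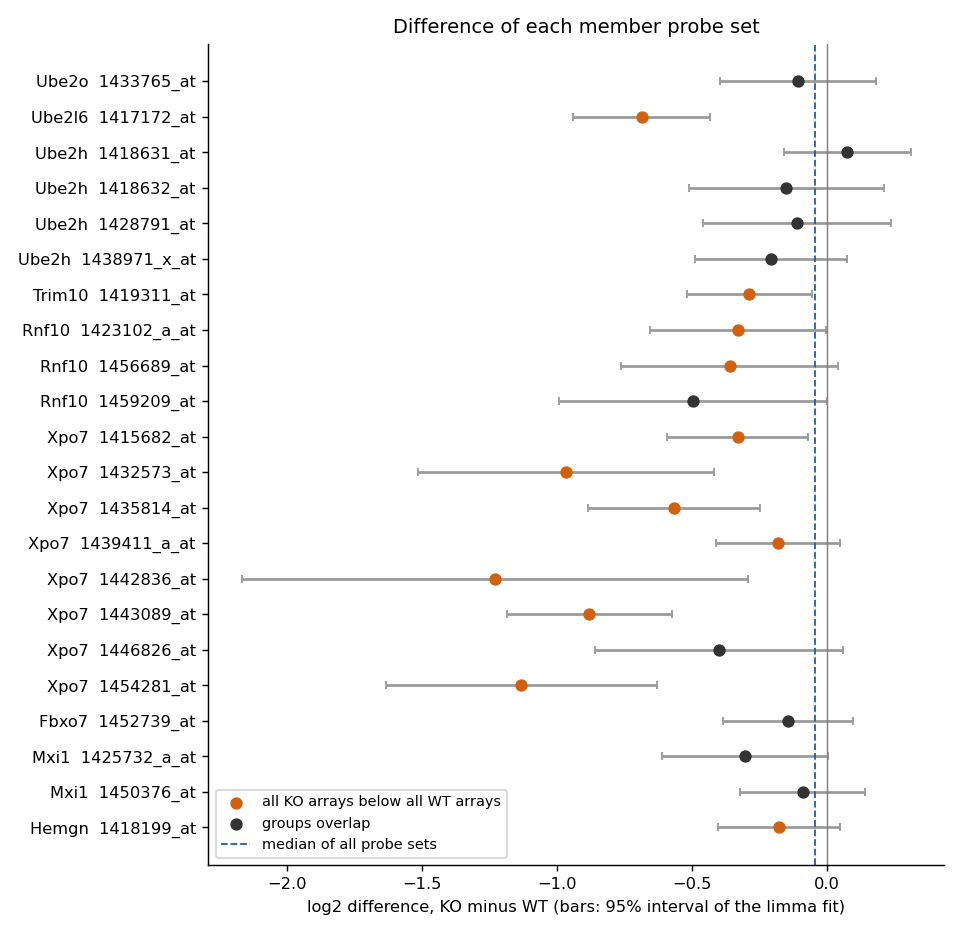
Log2 difference between KO and WT (x axis) for each member probe set, with the 95% interval of the limma fit over 3 arrays per group; orange points mark probe sets whose groups did not overlap and the dashed line the median of all probe sets, -0.04. Of the 22 points 21 lie left of 0, and the widest interval is that of Xpo7 1442836_at.

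The ligase genes Trim10 and Rnf10 were at 0.709 to 0.82 of the WT level, and Fbxo7 at 0.905. Trim10 encodes a RING-domain protein of the tripartite motif family that is expressed in terminal erythroid cells. Its probe set read 12.17, 12.16 and 12.20 in the WT mice, against 11.96, 11.81 and 11.90 in KO. The WT arrays lay within 0.04 of each other and all KO arrays were below them. The difference was -0.29 ± 0.10 (95% interval -0.52 to -0.06; limma adjusted p = 0.188), a KO level 0.82 of WT, and with the intensity trend the adjusted p was 0.0212.

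Rnf10 encodes a RING-finger ligase that has been tied to ubiquitination of small-subunit ribosomal proteins. All 3 of its probe sets were lower, at -0.50 to -0.33. The brightest (1423102_a_at) read 11.11, 10.78 and 11.17 (WT) against 10.77, 10.72 and 10.58 (KO). The groups came within 0.01 of each other, between WT 504 and KO 493, and the difference was -0.33 ± 0.14 (limma adjusted p = 0.247). In 1456689_at the KO arrays read 10.58, 10.11 and 10.66 against 10.78, 10.70 and 10.95 in WT, with KO 548 lowest. The third, 1459209_at, read 7.87, 8.27 and 8.41 in the WT mice, against 7.75, 7.34 and 7.97 in KO, and there the groups overlapped. Log2 ratios between the probe sets of Rnf10 differed between genotypes by -0.17 and -0.03 (exact permutation p = 0.7 and 1), less than their spread.

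Fbxo7 encodes an F-box protein that serves SCF ligases and binds the proteasome regulator PI31; mouse mutants have been described with red cell defects. It read 11.74, 11.62 and 11.74 (WT) against 11.63, 11.48 and 11.56 (KO). WT 504 lay below KO 493 by 0.01, and the difference of -0.14 ± 0.10 (95% interval -0.38 to 0.10; limma adjusted p = 0.474) was not called.

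Of the nuclear genes Xpo7 was lower over all its probe sets, and Mxi1 and Hemgn were slightly lower. Xpo7 encodes exportin 7, strongly induced in terminal erythroid cells, where it is needed for nuclear condensation and enucleation. Its brightest probe set (1439411_a_at) read 13.29, 13.27 and 13.39 in the WT mice, against 13.18, 13.12 and 13.11 in KO. Next in intensity, 1415682_at read 12.15, 12.05 and 12.23 (WT) against 11.93, 11.72 and 11.79 (KO). For 1435814_at the values were 10.40, 10.09 and 10.51 in the WT mice, against 9.83, 9.72 and 9.75 in KO. In each of these 3 probe sets every KO array was below every WT array. The differences were -0.18 ± 0.10, -0.33 ± 0.11 and -0.57 ± 0.13 (limma adjusted p = 0.352, 0.183 and 0.115).

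Of the 5 dimmer Xpo7 probe sets 4 had differences of -1.23 to -0.88, wider than these. Probe set 1443089_at read 5.03, 5.35 and 5.31 (WT) against 4.48, 4.28 and 4.29 (KO), a difference of -0.88 ± 0.13 (95% interval -1.19 to -0.57; limma adjusted p = 0.0588), the smallest p among the members. For 1432573_at the WT arrays read 5.87, 5.95 and 6.06 and the KO arrays 4.45, 5.30 and 5.23, with KO 493 lowest, a difference of -0.97 ± 0.23. In 1442836_at they read 8.32, 8.42 and 8.88 against 7.55, 6.40 and 7.98. Here KO 548 alone lay more than 1.1 below the other KO arrays, and the difference of -1.23 ± 0.40 was -0.78 without it. The dimmest, 1454281_at, read 4.22, 4.41 and 3.67 in the WT mice, against 2.79, 3.18 and 2.93 in KO. It was under the 25th percentile (4.30 to 4.40) on 5 of 6 arrays, and 1443089_at on 2, so the size of both differences rests on signals near the bottom of the scale. The remaining probe set, 1446826_at, was at -0.40 ± 0.19, with KO 551 and WT 504 both at 8.15.

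Relative to the brightest Xpo7 probe set, the other 7 had gaps of -1.05 to -0.15 between genotypes, and in 6 of them the KO and WT log2 ratios did not overlap. Each of these 6 had an exact permutation p of 0.1, the smallest possible, and an adjusted p of 0.163 over 13 such pairs in 4 genes. The exception was 1446826_at (gap -0.22, exact permutation p = 0.5). The brightest probe set itself read 13.11 to 13.39, near the top of the scale here, where S100a9 read 13.36 to 13.45. Whether that level narrowed its own difference, and so widened the gaps, was not tested. All 8 probe sets share the RNA of the same 6 arrays and are not replicates, and without probe positions the transcript forms they read were not analysed here. As the mean of its probe sets Xpo7 was at -0.71 ± 0.10, and in that fit of 18193 genes it and Ube2l6 were called (limma adjusted p = 0.0438 for each), 2 of the 9 member genes, against 0.704% of all genes called and 0.291% called lower. At an unadjusted p under 0.05 that fit had 4 of the 9 lower, against 13.1% of all genes.

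**Figure D3:**
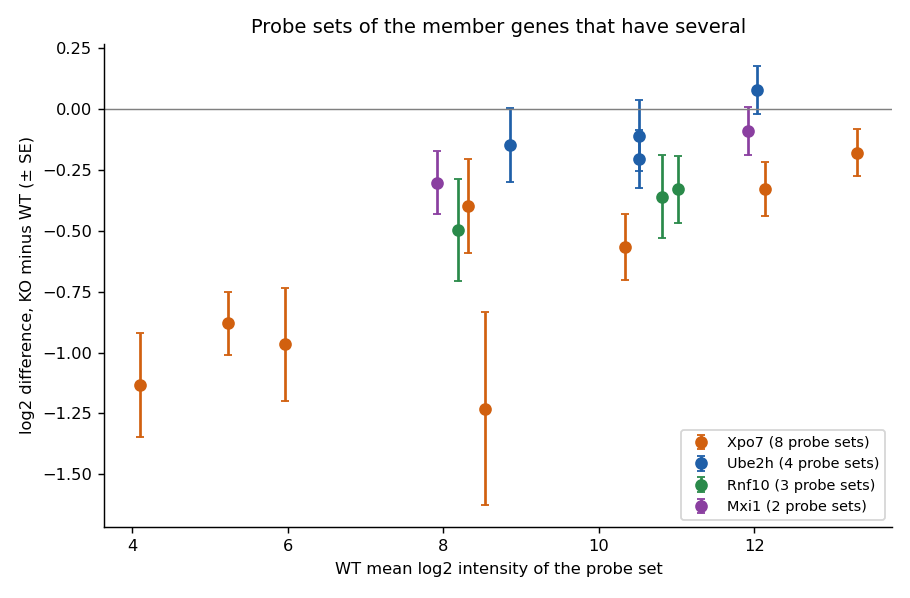
Log2 difference between KO and WT, with the moderated SE (y axis), against the WT mean log2 intensity (x axis) for each probe set of the 4 member genes with more than 1; 3 arrays per group. Xpo7 runs from -0.18 at its brightest probe set to -1.13 at its dimmest, with 1442836_at at -1.23, while Ube2h stays between -0.21 and 0.08.

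Mxi1 encodes a MAX-binding repressor that opposes MYC and has been tied to chromatin condensation in erythroblasts. Its brighter probe set (1450376_at) read 11.96, 11.86 and 11.95 (WT) against 11.90, 11.81 and 11.79 (KO), which overlap. The difference of -0.09 ± 0.10 turned to 0.02 with arrays centred. The dimmer one (1425732_a_at) read 8.06, 7.72 and 7.98 in the WT mice, against 7.74, 7.55 and 7.56 in KO, a difference of -0.30 ± 0.13 (limma adjusted p = 0.256). WT 504 again lay among the KO values. The gap between the probe sets was -0.21, with log2 ratios of -4.26 to -4.16 in KO and -4.14 to -3.90 in WT (exact permutation p = 0.1, the smallest possible).

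Hemgn encodes hemogen, a nuclear protein of erythroid cells that is a target of GATA1. Its values were 12.34, 12.34 and 12.30 (WT) against 12.22, 12.13 and 12.10 (KO). Both groups were tight and did not overlap, and the difference was small, at -0.18 ± 0.10 (95% interval -0.40 to 0.05; limma adjusted p = 0.354). Here the moderated SE exceeds what the SDs of 0.02 in WT and 0.06 in KO would give alone, since limma shares variance over probe sets.

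Most member probe sets also varied together within genotype. Over the 20 member probe sets above the 25th percentile on every array, 17 were below the WT mean in WT 504 (median deviation -0.10) and 18 were above it in WT 550 (0.12). In KO 493, 16 of 20 were above the KO mean (0.07), and 14 and 13 were below it in KO 548 and KO 551. Over all probe sets of that brightness the median deviations were only -0.03 to 0.02. WT 504 was below WT 550 in 18 of these 20 member probe sets, with a median of -0.21, against 55.9% of all 30778 such probe sets and a median of -0.04. This pair was picked after the values were seen. The other late erythroblast genes read below were also lower in WT 504 than in WT 550, some by little, except Epb42 and Ermap. This order was thus not particular to the members. For example, Sptb read 10.44 in WT 504 and 10.84 in WT 550, and Epb42 read 11.36 and 11.20. Xpo7, Ube2h and Rnf10 gave several of the 20 probe sets each, and probe sets of the same gene are not independent. Deviations from a group mean cancel within the group, so the counts of its arrays depend on each other. For Ube2o, Ube2h, Fbxo7 and Mxi1 the wild-type arrays overlapped the KO arrays in every probe set.

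Other genes of the same pathways, each read by its brightest probe set, gave the surroundings. Limma called 0 genes in each of the lists below. With dim probe sets left out it called Diaph3, Vps33b, Cd34 and Erg, described with their lists, and with probe sets averaged Mxd3, and no other gene of these lists under either setting. In the fit by brightest probe set, 0.385% of all genes passed the adjusted threshold; at an unadjusted p under 0.05, 12.7% were lower and 8.34% higher. Of 25 other measured E2 genes, 2 were lower and 1 higher at that unadjusted level, and the trend fit called 3. The list's median of -0.03 became 0.08 with arrays centred. Ube2s, the E2 that extends chains for the anaphase-promoting complex, was at -0.43 ± 0.11 (adjusted p = 0.135). Ube2v1, a catalytically inactive E2 variant, was at 0.47 ± 0.12 (adjusted p = 0.133). In the ISG15 system, 4 of 5 genes were measured and 2 were lower at an unadjusted p under 0.05. Usp18, the protease that removes ISG15, read 10.06, 10.15 and 9.63 in the WT mice, against 9.21, 8.54 and 9.29 in KO, a difference of -0.93 ± 0.24 (adjusted p = 0.127). Trim25, an ISG15 and ubiquitin ligase, was at -0.55 ± 0.13 (adjusted p = 0.109), and the trend fit called 1 gene of this list. Herc6, the main mouse ISG15 ligase, was at -0.28 ± 0.17, and Uba7, the E1 of the pathway, at -0.02 ± 0.11 (0.09 with arrays centred).

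Genes that work with the member enzymes or are related to them were mixed in direction. All 11 CTLH genes were measured, with 1 lower and 1 higher at the unadjusted level; with the trend 1 was called, lower. Ypel5 was at -0.26 ± 0.09 (adjusted p = 0.196) and Gid4, a substrate receptor, at 0.36 ± 0.11 (adjusted p = 0.165). Maea was at 0.20 ± 0.10. Among 6 measured SCF genes and Fbxo7 partners 0 passed at the unadjusted level and 0 were called with the trend; Psmf1, which encodes PI31, was at -0.22 ± 0.11 and the cell cycle kinase Cdk6 at -0.52 ± 0.23. For E1 enzymes and ubiquitin precursors 4 of 11 were measured, the E1 genes Uba6, Sae1, Uba3 and Nae1. Not all of these E1 genes serve ubiquitin, and no ubiquitin precursor was among them. All 4 were above 0 under each scaling tried, and the trend fit called 0. The 2 that were higher at an unadjusted p under 0.05 were Uba6, an E1 for ubiquitin (0.40 ± 0.10, adjusted p = 0.13), and Uba3, part of the NEDD8 E1 (0.28 ± 0.10, adjusted p = 0.212). In the TRIM family, with 57 genes measured besides Trim10, 11 were lower and 4 higher at the unadjusted level. Its median was -0.17 (-0.06 with arrays centred), and the trend fit called 4, of which 2 were lower. The 11 lower genes include Trim12a, Trim30d and Trim21, in which KO 551 read at or near WT level, as given under other observations. Trim16 was at -0.97 ± 0.16 (adjusted p = 0.0684) and Trim45 at -0.67 ± 0.15 (adjusted p = 0.102).

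Of 11 measured exportin and RAN cycle genes 1 was lower and 1 higher at the unadjusted level, the median was 0.05 (0.16 with arrays centred), and the trend fit called 1 gene. Xpot, the tRNA exportin, was at 0.42 ± 0.11 (adjusted p = 0.136) and Rangap1, the RAN GTPase activator, at -0.27 ± 0.11 (adjusted p = 0.225). Xpo1, the main protein exportin, was at 0.07 ± 0.09, and Xpo4 at -0.19 ± 0.14. Whether Xpo7 differs from them was not tested. In the MYC-MAX-MXD network, 12 genes were measured and 2 were lower at the unadjusted level: Mxd3, another MAX-binding repressor (-0.27 ± 0.10, adjusted p = 0.202), and Mnt (-0.44 ± 0.16, adjusted p = 0.206); the trend fit called 1 gene. Myc itself was at -0.15 ± 0.34. Of 18 nuclear condensation and enucleation genes 4 were lower and 4 higher, the median was -0.02 (0.09 with arrays centred) and the trend fit called 4. Diaph3, a formin of late erythroblast division and enucleation, read 11.07, 10.99 and 10.97 (WT) against 10.40, 10.19 and 10.51 (KO), a difference of -0.64 ± 0.12 (adjusted p = 0.0784; 0.00813 with the trend). Vps33b, a vesicle-sorting protein, was at 0.45 ± 0.10 (adjusted p = 0.103).

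Late and early genes of the erythroid programme were read beside the members. All 14 measured other late erythroblast genes were below 0, with a median of -0.13, but 9 of 14 and a median of -0.02 with arrays centred. All KO arrays lay below all WT arrays in 8 of these 14, against 16.2% of all genes. Read the same way, 5 of the 9 member genes separated, so this was not particular to the members. Epb42 and Sptb passed at the unadjusted level, 2 in all, and 0 were called with the trend. Sptb, beta spectrin, was at -0.56 ± 0.20 and Epb42, protein 4.2 of the membrane, at -0.27 ± 0.10 (adjusted p = 0.194 and 0.205). Among the 12 early progenitor genes 11 were below 0, the median was -0.32, and 5 were lower and 1 higher at the unadjusted level; with arrays centred the median was -0.21. The trend fit called 3, all lower. Cd34 was at -0.83 ± 0.17 and Erg at -0.65 ± 0.12 (adjusted p = 0.0954 and 0.0792).

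**Figure D4:**
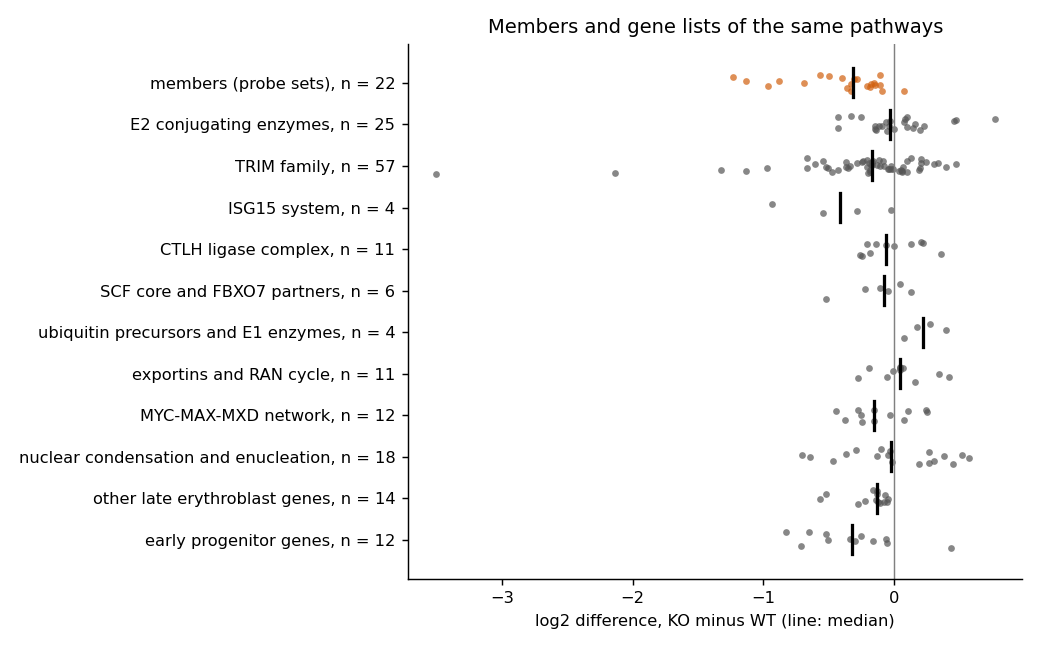
Log2 difference between KO and WT (x axis) for the 22 member probe sets (orange) and for the genes of 11 lists, each gene by its brightest probe set (grey); vertical lines are medians and n is the number of points. The member median of -0.32 is over all 22 probe sets; by the brightest probe set of each gene, the basis of the lists, it is -0.18, next to the TRIM family (-0.17) and the MYC-MAX-MXD network (-0.15). The medians of the exportins (0.05) and of the E1 genes, not all of which serve ubiquitin, lie right of 0.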

How the data were processed

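The deposited table held probe-set intensities on a linear scale, made by the authors with RMA, the robust multi-array average (named in the submitters' processing notes); software, version and background step are not given in the sources used here. Since RMA gives arrays similar distributions, a change common to most transcripts would be partly lost. All values (100%, within 0.0051) were powers of 2 with a 2-decimal exponent, and these log2 values of the deposited intensities were used without further normalization or pseudocount. Of 45101 probe sets 64 controls were left out. Names came from GEO's platform annotation (34945 probe sets with 1 gene, 932 with several, which name none), with symbols updated through RefSeq. KO minus WT was tested with limma 3.58.1 in R 4.3.3 (lmFit, eBayes, no covariate), checked on simulated data, with Benjamini-Hochberg adjustment over 45037 probe sets and a threshold of 0.05. The number of arrays limits the precision. Intensities of different probe sets do not compare transcript amounts. Gaps between probe sets of a gene were tested by exact two-sided permutation over 6 arrays. Alternatives were other scalings, a level filter, other variance models, probe sets averaged or restricted, and each array left out.

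Members, lists and rules were chosen with earlier results of these data known. Named genes are all members and, per list, up to 4 called genes or otherwise the 2 with the smallest p; Herc6, Uba7, Maea, Xpo1, Xpo4 and Myc were added for their roles. Of 10 members 9 were measured; list genes without a single-gene probe set, Isg15 among them, were not analysed here.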

Additional observations from a re-analysis of the deposited data

How the results depend on the processing

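The member median kept its sign under every alternative run (-0.39 to -0.20 under the planned ones). Under alternatives chosen after the data were seen it was -0.29 over the 20 brighter probe sets, -0.19 without Xpo7 and -0.18 with 1 probe set per gene. Member probe sets called lower, 0 in limma's fit, were 8 with the intensity trend, 1 with dim probe sets left out and 2 of 9 genes with probe sets averaged. Those lower at an unadjusted p under 0.05, 10 in that fit, were 6 with arrays centred, 4 of 9 genes with probe sets averaged, and 5 to 10 with 1 array left out. With probe sets averaged 128 of 18193 genes (0.704%) were called. Over all probe sets 160 were called, and 411 with arrays centred, 1015 without dim probe sets, 1592 with the trend, 19 by the ordinary test and 8 to 23 with 1 array left out. With arrays centred Ube2o turned to 0.0033 and Mxi1 1450376_at to 0.02, and Ube2h 1428791_at turned to 0.02 without WT 550 (-0.23 to 0.02 with 1 array left out). The causes were not tested. No paired analysis was possible because the groups share no title number. Signal near the bottom of the scale limits 2 Xpo7 probe sets.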

Other observations

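In the TRIM family, some relatives of Trim10 on chromosome 7 split the KO mice, with KO 493 and KO 548 low and KO 551 near WT level; these genes were chosen after their values were seen. Trim12a (1437432_a_at) read 8.94 (WT 497), 8.56 (WT 504) and 8.44 (WT 550), against 3.26 (KO 493), 3.22 (KO 548) and 8.94 (KO 551). Trim34a (1424857_a_at) read 8.52, 8.46 and 8.57 in the WT mice, against 4.75, 4.95 and 8.74 in KO, and Trim5 (1442693_at) 7.47, 6.96 and 7.53 (WT) against 5.17, 5.30 and 7.51 (KO). For Trim30d (1435665_at) the values were 7.60, 7.14 and 6.65 in the WT mice, against 4.20, 4.08 and 6.71 in KO. For Trim30a (1417961_a_at) they were 7.15, 6.57 and 6.65 (WT) against 5.45, 5.43 and 7.16 (KO). Trim21 (1448940_at), on the same chromosome, read 10.39, 10.26 and 10.26 (WT) against 9.58, 9.53 and 10.24 (KO). Of the 21 TRIM probe sets on that chromosome, 8 from 5 genes (Trim5, Trim12a, Trim30a, Trim30d and Trim34a) had KO 493 and KO 548 below every WT array and KO 551 at or above the lowest WT array, some by little: Trim12a 1420648_at ran from 5.85 to 6.09 in WT and from 5.64 to 5.90 in KO. Trim34a 1426093_at did not split (10.76 to 10.93 in WT and 10.80 to 10.93 in KO), nor did any probe set of Trim3, Trim6, Trim12c, Trim28, Trim66, Trim68 and Trim72, and Trim21 missed this rule because KO 551 was 0.02 under the lowest WT array. The limma adjusted p of the 8 was 0.177 to 0.441, so a comparison of genotypes does not call them, and what separates KO 551 from the other KO mice there was not tested. How often probe sets elsewhere follow the same rule was not counted here.

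Among the conjugating enzymes Ube2d3 (1455479_a_at) was high on a single array, with 13.62 in KO 493 against 11.13 in KO 548, 11.13 in KO 551 and 11.10 to 11.26 in WT.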
